A study of Arabidopsis thaliana with 9 samples.

Results

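Natural accessions of *Arabidopsis thaliana*, wild strains kept as inbred lines, differ in the transcripts that their roots accumulate. The root tips of Cvi (Cape Verde Islands, Cvi-1 in the labels) and L*er* (Landsberg *erecta*, L*er*-2 in the labels) were compared here over the genome outside the end of chromosome 1 in which the study placed its candidate interval for the response to cadaverine. The genes compared are those to which the array annotation gives a probe set of their own, and the loci from AT1G67830 to AT1G80920 were left out. This left 12720 genes, measured by 12869 probe sets, of 13356 genes named alone on the array, while 636 genes fell in the interval. A probe set is a group of short oligonucleotides that together report 1 signal for a transcript.

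Each genotype has 3 arrays, and the RNA of an array came from a separate pool of about 600 root tips, 7 mm long, which the labels call a biological replicate. At harvest the seedlings were 5 d old. They had been stratified for 8 d and grew at 22 °C with 16 h light and 8 h dark on hard agar plates that stood upright for 2 d and were then tilted back by 30° for 3 d. All genotypes were grown alike and, as far as the labels say, without cadaverine. The labels place the 3 arrays of a near isogenic line (NIL), 170G-55-16 or HGI2.1, in the same series, and these entered the fit only to estimate the spread, except where their values are named.

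Plant accessions carry different sets of defence and specialized metabolism genes, and many of these genes lie in tandem arrays, runs of neighbouring copies that arose by duplication. Enzyme families of such arrays, such as cytochromes P450, glycosyltransferases and terpene synthases, build and decorate small molecules, whereas genes for the cytoskeleton or for protein turnover are shared by all cells. The oligonucleotides of this array were designed on the reference accession, Columbia. The sequences of Cvi and L*er* under the oligonucleotides were not compared here, so a difference in signal is a difference in hybridization, and the part of sequence differences in it was not tested.

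The log2 of each deposited signal was compared in limma, in 1 fit to the 9 arrays, and a positive difference on that scale means a higher signal in Cvi than in L*er*. Probe sets with a fold of at least 2 were called where the p adjusted by Benjamini-Hochberg, over 22746 probe sets of the array, was under 0.05. Cvi array 1 stood apart. At 4.93% of the 12869 probe sets it was 2-fold or more away from the average of Cvi arrays 2 and 3, against 0.0311% between Cvi arrays 2 and 3 and at most 0.0466% for any L*er* array. Differences are therefore given with all arrays, and the counts also without Cvi array 1. The fit gives each probe set a single spread shared by all genotypes. Where the Cvi arrays scatter more than the others, the standard errors and p-values can thus understate the spread in Cvi. At AT3G27200, for example, the SD was 0.95 in Cvi, 0.04 in L*er* and 0.11 in the NIL. For a single gene an exact permutation test of 3 arrays against 3 cannot give a two-sided p below 0.1, so the p-values rest on the fit across all probe sets.

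Of the 12869 probe sets, 487 (3.78%) were called, each for a different gene. The signal was higher in Cvi at 192 of them (1.49%) and lower at 295 (2.29%). The median fold was 2.69 among those higher and 2.78 among those lower in Cvi, and the median difference of all 12869 was 0.01. At 42 genes the fold was at least 8, and 21 of these were higher and 21 lower in Cvi. The arrays of the 2 accessions did not overlap at any of the 487, whereas this was so at 25.8% of all 12869 probe sets. With no limit on the fold, by the adjusted p alone, 690 (5.36%) were higher and 899 (6.99%) lower in Cvi, or 1589 in all. Without Cvi array 1 the calls with a fold of at least 2 numbered 464, of which 404 were among the 487. The count at any fold depended far more on single arrays, with 2922 without Cvi array 1, 993 without L*er* array 1 and 1013 without L*er* array 3.

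**Figure D1:**
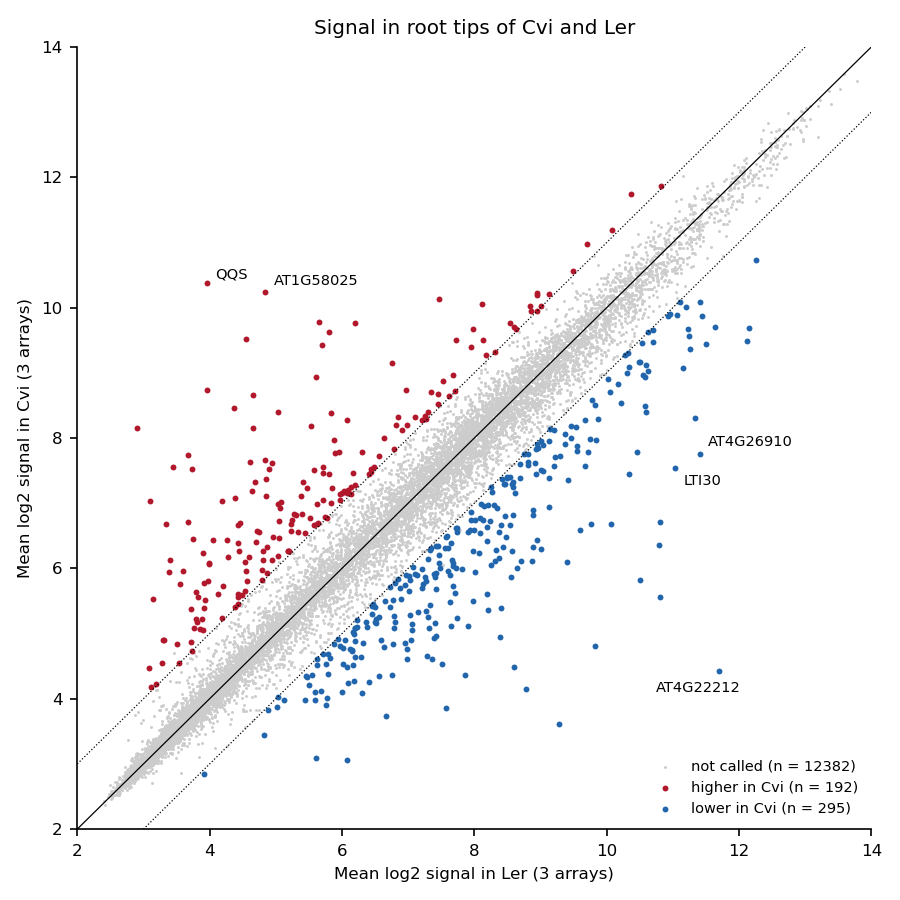
Mean log2 signal of each probe set in L*er* (horizontal axis) and Cvi (vertical axis), 3 arrays each. Grey points were not called, coloured points were called higher (192) or lower (295) in Cvi, the solid line marks equal signal and the dotted lines a 2-fold difference.

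Few tissue markers could be followed. Of 67 entries in 8 marker lists, 4 have a named probe set, and they mark root hairs, dividing cells and green tissue. The root hair expansin genes *EXPA7* and *EXPA18* had mean log2 signals of 9.91 and 10.46 in L*er*, with differences of 0.26 (adjusted p = 0.233) and −0.02 (adjusted p = 0.953). *AUR1*, the gene of a mitotic kinase, had 9.34 in L*er* and a difference of −0.20 (adjusted p = 0.434). *RCA*, which encodes Rubisco activase and marks green tissue, had 8.70 in Cvi and 9.16 in L*er*, a difference of −0.47 (adjusted p = 0.0467) that is under 2-fold. The markers of root cap, stem cell niche, endodermis, xylem and phloem were not analysed here, so the makeup of the tips could not be compared, and fewer cells of a type cannot be told apart from less RNA per cell in any gene below.

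The gene with the greatest loss of signal in Cvi was AT4G22212, which encodes a small defensin-like protein of the kind that plants secrete against microbes. Its log2 signals were 4.19, 4.58 and 4.49 in Cvi arrays 1 to 3 and 11.85, 11.68 and 11.56 in L*er*. It was thus among the brighter probe sets in L*er* and near the dim end of the array in Cvi, a 155-fold difference (−7.28, standard error 0.13, adjusted p = 6.23e-10). Both genes of class III peroxidases, secreted enzymes that oxidize phenolics and cross-link cell walls, among the 15 greatest losses had clear signals in L*er*. AT1G34510 had 3.31, 3.75 and 3.79 in Cvi and 9.54, 9.05 and 9.23 in L*er* (difference −5.66, standard error 0.16, adjusted p = 7.14e-09). AT2G39040 had 5.37, 6.10 and 6.01 in Cvi and 10.49, 10.43 and 10.60 in L*er* (difference −4.68, standard error 0.17, adjusted p = 5.12e-08). The 3 Cvi arrays of each gene lay close together and far below every L*er* array.

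Genes for proteins that bind or make lipids were also among the lowest in Cvi. The lipid-transfer protein family includes AT3G22570 and AT4G22610, whose products are small secreted proteins. AT3G22570 had 5.49, 5.67 and 5.53 in Cvi and 11.03, 10.60 and 10.80 in L*er*, a 38.0-fold difference (adjusted p = 2.89e-09). AT4G22610 had 4.60, 5.22 and 5.03 in Cvi and 8.75, 7.84 and 8.56 in L*er*, a 10.8-fold difference (adjusted p = 3.60e-06). AT3G06460, a gene of the fatty acid elongase family, had 6.53, 7.00 and 6.58 in Cvi and 10.87, 10.80 and 10.78 in L*er*, a 17.3-fold difference (adjusted p = 7.01e-08). The Cvi arrays were below the L*er* arrays at each of them, as the choice of these genes required.

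Terpene synthases, which form the carbon skeletons of terpenes, were found on both sides. AT3G29410 had log2 signals of 4.93, 4.75 and 4.77 in Cvi and 9.91, 9.85 and 9.69 in L*er*, 32.0-fold lower in Cvi (adjusted p = 4.08e-09). AT1G33750 had 4.32, 4.45 and 4.70 in Cvi and 8.54, 8.75 and 8.52 in L*er*, 17.3-fold lower in Cvi (adjusted p = 1.25e-08). AT4G20230 went the other way, with 9.15, 8.47 and 8.38 in Cvi and 4.58, 4.89 and 4.51 in L*er*, 16.1-fold higher in Cvi (adjusted p = 4.28e-07). Each accession thus had a clear signal for a terpene synthase gene at which the other was dim.

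The remaining losses in Cvi among the 15 greatest were spread over unrelated functions. The dehydrin gene *LTI30*, whose product protects membranes in cold and dry tissue, had 7.14, 7.54 and 7.93 in Cvi and 10.96, 11.09 and 11.05 in L*er* (11.3-fold, adjusted p = 3.49e-07). AT4G26910, which encodes a subunit of the mitochondrial 2-oxoglutarate dehydrogenase, had 7.93, 7.81 and 7.52 in Cvi and 11.46, 11.47 and 11.28 in L*er* (12.6-fold, adjusted p = 2.14e-08). Unlike most of the other losses, both kept a middling signal in Cvi. The jacalin lectin gene AT5G35940 differed by −4.44 (standard error 0.11), the glycine-rich RNA-binding protein gene AT4G13860 by −4.63 (0.10) and AT4G23590, of the tyrosine aminotransferase family, by −3.73 (0.12). The cupredoxin gene AT3G27200 differed by −3.39 (standard error 0.35, adjusted p = 0.000111), and its Cvi arrays were the most scattered of the 15, at 5.81, 7.69 and 6.52 against 10.03, 10.10 and 10.07 in L*er*.

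On the other side, *QQS* (AT3G30720), an orphan gene found in *A. thaliana* alone that affects starch content, had the greatest gain of signal in Cvi. Its log2 signals were 9.47, 11.04 and 10.65 in Cvi and 3.94, 4.03 and 3.90 in L*er*, an 86.1-fold difference (6.43, standard error 0.31, adjusted p = 3.26e-07). Cvi array 1 was the lowest of the Cvi arrays, and without it the difference was 6.88. AT4G19730, a gene of the chitinase-like glycosyl hydrolases, had 9.78, 9.19 and 9.60 in Cvi and 4.70, 4.54 and 4.39 in L*er* (31.5-fold, adjusted p = 1.63e-08). AT1G60730, of the aldo-keto reductases, had 9.90, 9.59 and 9.87 in Cvi and 5.48, 5.92 and 5.57 in L*er* (17.5-fold, adjusted p = 6.99e-08). AT1G30990, whose product resembles the major latex proteins, had 8.71, 9.81 and 9.75 in Cvi and 5.79, 5.62 and 5.67 in L*er* (13.3-fold, adjusted p = 3.54e-06). L*er* signals of *QQS* and AT4G19730 were near the dim end, while those of the other pair were somewhat higher.

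Genes named here by locus only made up most of the other gains. AT1G58025 differed by 5.40, AT4G03156 by 5.24, AT1G03710 by 4.77, AT3G29787 by 4.10, AT1G52950 by 3.95, AT2G15560 by 3.83, AT5G45500 by 3.80 and AT4G27400 by 3.57, with standard errors of 0.14 to 0.33 and adjusted p of at most 2.50e-06. The C1-domain genes AT5G54020 and AT5G54040, described below with their neighbours, complete the 15.

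**Figure D2:**
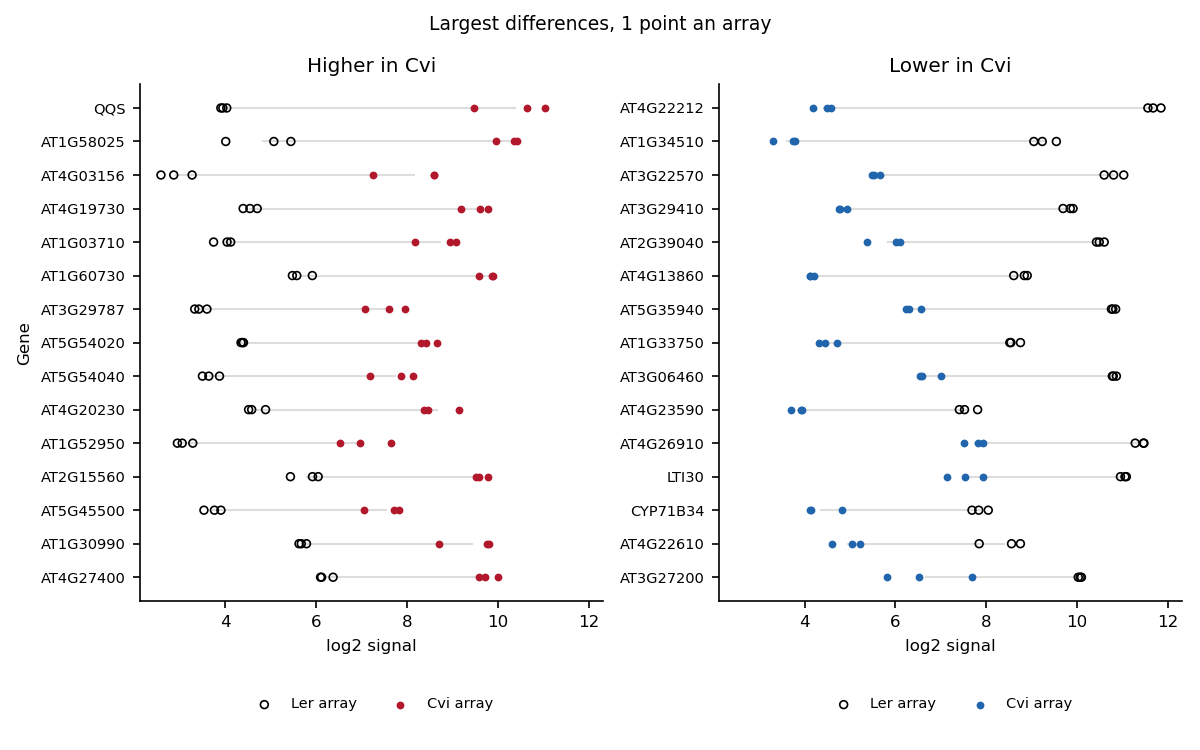
Log2 signal (horizontal axis) of the 15 genes with the largest differences in each direction (vertical axis), 1 point per array, with filled points for Cvi, open points for L*er* and a grey line between the means. These genes were chosen among those whose Cvi and L*er* arrays do not overlap, and the Cvi arrays of AT3G27200 run from 5.81 to 7.69.

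Strong differences were also found among bright genes. The 3 called genes with the highest mean signal on the lower side were the dirigent protein gene AT4G11190, whose family steers the coupling of phenolics, the BAHD acyltransferase gene AT5G47980 of the thalianol gene cluster, and AT2G16005, of the MD-2-related lipid recognition proteins. AT5G47980 had 9.69, 9.61 and 9.75 in Cvi and 12.27, 12.13 and 12.07 in L*er* (5.55-fold lower, adjusted p = 9.41e-08). AT2G16005 had 9.13, 9.75 and 9.60 in Cvi and 12.45, 11.74 and 12.16 in L*er* (6.16-fold lower, adjusted p = 9.70e-06). AT4G11190 had 10.22, 10.95 and 11.01 in Cvi and 12.41, 12.08 and 12.30 in L*er* (2.90-fold lower, adjusted p = 0.000366). All of them remained bright in both accessions.

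The brightest genes with a higher signal in Cvi differed less. The defensin-like gene *LCR69* had 11.05, 12.10 and 12.08 in Cvi and 10.09, 10.34 and 10.66 in L*er* (2.60-fold, adjusted p = 0.00490). The jacalin lectin gene AT2G25980 was 2.17-fold higher (adjusted p = 0.000811) and the GDSL lipase gene AT2G23540 2.06-fold (adjusted p = 0.00380). Both of these fell under 2-fold without Cvi array 1, with differences of 0.93 and 0.85, and AT2G23540 also did so without L*er* array 1 (0.95).

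Calls higher in Cvi made up a smaller share of the calls among brighter probe sets. The probe sets were divided into quintiles by mean log2 signal over the 9 arrays. In the dimmest quintile, 8 of 2574 were called (0.311%, 95% Wilson interval 0.158 to 0.612), and in the next 94 of 2574 (3.65%, 2.99 to 4.45). The middle quintile, from 5.49 to 7.18, held the most calls, 194 of 2573 (7.54%, 6.58 to 8.62). The brighter quintiles had 100 (3.89%, 3.20 to 4.70) and 91 (3.54%, 2.89 to 4.32) of 2574. The share of these calls that were higher in Cvi was 75.0% in the dimmest quintile, 69.1% and 40.7% in the following ones, and 22.0% in each of the brighter ones. The 9 arrays include the NIL, which was nearer to L*er* at most called genes, so their mean weights L*er* above Cvi and places genes that are low in L*er* among the dimmer ones. With quintiles by the mean of the 6 arrays of the 2 accessions, the share higher in Cvi was 4 of 5 calls in the dimmest quintile, then 55.1% and 43.4%, and 24.8% and 27.7% in the brighter ones. These intervals cover counting error only, and genes are not independent replicates.

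**Figure D3:**
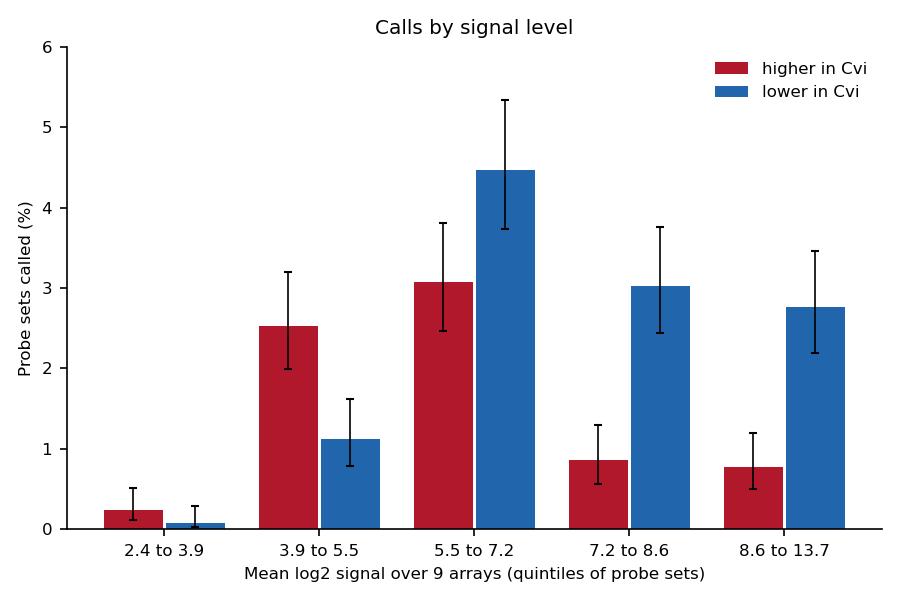
Percent of probe sets called higher or lower in Cvi (vertical axis) in quintiles of mean log2 signal over the 9 arrays (horizontal axis, ranges of each quintile), with bars for the percent and lines for 95% Wilson intervals. Calls higher in Cvi fall from 3.07% in the middle quintile to 0.777% in the brightest, and calls lower in Cvi from 4.47% to 2.76%.

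Many calls were between a clear signal in one accession and a dim one in the other. A mean log2 signal of 5.37 bounds the dimmest tertile of the array. L*er* was below it at 103 of the 192 genes higher in Cvi (53.6%), and Cvi was below it at 96 of the 295 genes lower in Cvi (32.5%). Both accessions were above it at 288 genes, 89 higher and 199 lower in Cvi, and both were below it at 23. No detection calls were used, so signal over background is unknown, and a fold against a dim accession is a ratio of signals only. With 16 added to each signal before the logarithm, which damps dim differences, 126 genes were called higher and 224 lower in Cvi.

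Enzymes that attach sugars to small molecules, the UDP-glycosyltransferases, were the largest family identified by name, and 7 of its 50 probe sets were called, 4 higher and 3 lower in Cvi, against 487 of 12869 (3.78%) for all. The median difference of the 50 was −0.01. *UGT85A2* had 8.54, 8.44 and 8.48 in Cvi and 10.75, 10.54 and 10.47 in L*er* (4.28-fold lower, adjusted p = 3.26e-07). *UGT87A2* had 10.43, 10.04 and 10.13 in Cvi and 9.01, 8.90 and 8.96 in L*er* (2.37-fold higher, adjusted p = 5.56e-05). Both genes were bright in both accessions, and the calls of the *UGT84A* genes are given below with their array.

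Of 29 probe sets matched by name to the cytochromes P450, oxygenases of many metabolic pathways, 4 were called, 2 in each direction. The median difference of the 29 was 0.01, and 3.78% of all probe sets were called. Cyclophilin genes, some of which also bear the name CYP, were taken in by the match, such as *CYP59* and *SQN*. The 29 are thus not P450 genes alone. *CYP51G2*, named for a sterol demethylase family, had 5.83, 6.14 and 6.05 in Cvi and 7.71, 7.79 and 7.65 in L*er* (3.27-fold lower, adjusted p = 6.72e-06). *CYP71B6*, whose product works on indole compounds, had 10.45, 9.78 and 9.63 in Cvi and 8.98, 8.74 and 8.83 in L*er* (2.15-fold higher, adjusted p = 0.00278), which was under 2-fold without Cvi array 1 (0.86). Glutathione transferases, which conjugate toxic compounds, gave 2 calls among 10, one in each direction. *GSTU15* had 7.55, 7.60 and 7.74 in Cvi and 4.43, 4.74 and 4.65 in L*er* (8.15-fold higher, adjusted p = 2.26e-07), and *GSTU28* was 2.49-fold lower (adjusted p = 0.00107).

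Of 17 genes matched by name to transporters for sugars and amino acids, 4 were called, against 3.78% called of all probe sets. All 4 encode SWEET sugar transporters, of which 14 were measured. The 17 include *SWEETIE*, which was matched by its name only and is not a SWEET transporter. *SWEET14* had 6.86, 6.26 and 6.62 in Cvi and 5.21, 5.35 and 5.15 in L*er* (2.54-fold higher, adjusted p = 0.000163). *SWEET11*, which exports sucrose from phloem parenchyma in leaves, had 8.48, 8.78 and 8.51 in Cvi and 9.82, 9.94 and 9.55 in L*er* (2.27-fold lower, adjusted p = 0.000314). *SWEET17*, a fructose carrier of the vacuole, had 4.89, 5.72 and 4.91 in Cvi and 6.54, 6.35 and 6.61 in L*er* (2.50-fold lower, adjusted p = 0.00175). *SWEET3* was 2.11-fold lower (adjusted p = 0.000418), but under 2-fold without Cvi array 1 (−0.95). Among 9 peptide and nitrate transporters, AT2G26690 alone was called, 2.53-fold lower in Cvi (adjusted p = 0.000816).

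Cell wall genes moved both ways. Expansins and xyloglucan enzymes loosen and remodel walls. Of 30 such genes, 1 was called higher and 2 lower in Cvi, against 3.78% called of all probe sets. The expansin-like gene *EXLA1* had 5.93, 5.91 and 6.49 in Cvi and 8.66, 8.74 and 8.69 in L*er* (6.02-fold lower, adjusted p = 1.59e-06). *XTH18* had 8.24, 7.77 and 7.88 in Cvi and 9.87, 9.87 and 9.79 in L*er* (3.67-fold lower, adjusted p = 9.05e-06). *XTH26* was 2.17-fold higher (adjusted p = 0.00213), although under 2-fold without L*er* array 2 (0.90). Of 35 beta-glucosidase and other glycosyl hydrolase genes, *BGLU43* was called higher and *BGLU44* and *BGLU45* lower, beside the same 3.78%. *BGLU45* had a fold of 2.20 (adjusted p = 0.00308) that was under 2 without Cvi array 3 or L*er* array 2.

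Among the families found by gene name, several held a single call, against 3.78% called of all probe sets. *HIS1-3*, the gene of a linker histone induced by drought, had 4.02, 4.43 and 4.58 in Cvi and 6.41, 6.84 and 6.43 in L*er* (4.65-fold lower, adjusted p = 1.11e-05) and was the only one of 8 histone genes called. *JAL22*, 1 of 4 jacalin lectin genes with such a name, was 3.11-fold lower (adjusted p = 2.42e-05). The jacalin lectin genes AT5G35940 and AT2G25980, known by locus only, were also called, at −4.44 and 1.12. Of 7 bHLH factors, *BHLH101*, an iron deficiency regulator, was called, with 5.66, 6.22 and 6.30 in Cvi and 4.07, 3.98 and 3.91 in L*er* (4.21-fold higher, adjusted p = 2.37e-05). The other measured iron deficiency genes were *PYE*, at 0.28 (adjusted p = 0.218), and AT3G13610, at 0.33 (adjusted p = 0.0940).

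Other families found by name held no call. Among probe sets grouped by the stem of their symbol, 42 stems had at least 5 members, 28 of these had no call, and they hold 261 probe sets. They include the 15 probe sets of tetraspanins, the 13 of bZIP factors and the 12 of ubiquitin-specific proteases. No call was made among 9 tubulin and actin genes, 7 WRKY factors or 7 peroxidases known by name. The class III peroxidase genes AT1G34510 and AT2G39040, known by locus only, were called, at −5.66 and −4.68. At a fold under 2, 2 bZIP and 2 tetraspanin genes passed the adjusted p. Few of these stems are large enough for a share near 3.78% to give more than 1 call.

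The lists of pathways cover few measured genes, 40 of 307 entries, so they are given by their members. Of the abscisic acid and cold genes, *LTI30* was called, *COR47* differed by −0.40 (adjusted p = 0.0121, under 2-fold) and *COR15A* by −0.04 (adjusted p = 0.900). Of 19 listed genes of aliphatic glucosinolates, sulfur-rich defence compounds, 3 were measured. All 3 passed the adjusted p with a lower signal in Cvi, against 6.99% of all probe sets, and *AOP1* was called. *AOP1* and *AOP3* belong to the same tandem array, so they are not independent of each other. *AOP1* had 4.91, 5.34 and 5.56 in Cvi and 6.99, 6.69 and 6.66 in L*er* (2.85-fold lower, adjusted p = 0.000112), while *AOP3*, which modifies the side chain, differed by −0.55 (adjusted p = 0.0164) and *BCAT4*, which starts chain elongation, by −0.59 (adjusted p = 0.0168).

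Of 4 auxin response genes, *GH3.3*, whose product conjugates auxin to amino acids, was called. Its signals were 8.03, 6.27 and 6.48 in Cvi and 4.93, 5.40 and 4.84 in L*er* (3.65-fold higher, adjusted p = 0.0152). Cvi array 1 was the highest, and the call was lost without L*er* array 1 (adjusted p = 0.0659) or L*er* array 3 (adjusted p = 0.0743). *WES1*, of the same enzyme family, was 0.71 higher (adjusted p = 0.0449), and *GH3.1* at 0.53 and *IAA29* at 0.22 did not pass.

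Polyamine metabolism, the subject of the study, was represented outside the interval by 10 probe sets of 8 genes. Against 3.78% called of all probe sets, 2 of these were called, both lower in Cvi. They are the copper amine oxidase genes AT3G43670 and AT1G31710, whose family breaks down amines such as putrescine. AT3G43670 had 6.60, 5.49 and 5.87 in Cvi and 7.26, 7.24 and 7.14 in L*er* (2.33-fold, adjusted p = 0.00492). AT1G31710 had 9.46, 8.57 and 8.70 in Cvi and 10.03, 10.12 and 9.90 in L*er* (2.15-fold, adjusted p = 0.00514) at one probe set and a difference of −0.98 (adjusted p = 0.0632) at its other. Both were under 2-fold without Cvi array 2 (−0.97 and −0.93), and AT1G31710 just so without Cvi array 3. The copper amine oxidase gene AT2G42490 differed by 0.49 (adjusted p = 0.112) and the S-adenosylmethionine decarboxylase gene *SAMDC* by −0.21 (adjusted p = 0.535). Of other copper amine oxidase genes, AT1G31670 differed by 0.02 (adjusted p = 0.946). AT1G31690 differed by −0.08 and −0.23 at its probe sets (adjusted p = 0.753 and 0.271).

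Of the lists for flavonoids (4 genes), low oxygen (2 genes), heat shock, touch and wound, sulfur, cytokinin response, indole glucosinolates and the circadian clock (1 gene each), none held a call. The clock gene *GI* was 0.85 higher in Cvi (adjusted p = 0.0726). Of 3 genes for salicylate and jasmonate defence, *SAG101* passed at a lower fold (−0.64, adjusted p = 0.0111).

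Tandem arrays were taken as protein-coding genes that share a symbol stem and lie at most 10 gene positions apart. Of 162 probe sets for such genes, 18 were called (11.1%, 95% Wilson interval 7.14 to 16.9), 6 higher and 12 lower in Cvi. Of 912 probe sets for genes with a stem but no such neighbour, 32 were called (3.51%, 2.50 to 4.91). The median absolute difference was 0.18 in each class. Genes were grouped by symbol and position alone, so the genes of an array need not all be copies. Where they are, they share sequence and may share signal on the array. Such copies are not independent of each other, and calls for near-identical copies are uncertain. Of 86 arrays with a measured gene, 14 held a call and 3 held at least 2. Each of these 3 had calls in both directions.

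The first was the *CYP71B* array on chromosome 3, with 11 measured genes. *CYP71B34* had 4.83, 4.13 and 4.12 in Cvi and 7.83, 8.04 and 7.69 in L*er* (11.3-fold lower, adjusted p = 8.66e-07). *CYP71B37*, 3 loci further, had 7.53, 7.14 and 7.32 in Cvi and 4.85, 4.77 and 4.44 in L*er* (6.26-fold higher, adjusted p = 6.22e-07). *CYP71B35* and *CYP71B36*, which lie between them, differed by −0.03 and 0.01 and were dim in both accessions. The other 7 genes differed by −0.31 (*CYP71B22*) to 0.35 (*CYP71B23*), and none passed the adjusted p.

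The *UGT84A* array on chromosome 4 holds glycosyltransferases of hydroxycinnamic acids. *UGT84A1* had 7.27, 6.66 and 6.97 in Cvi and 8.27, 8.20 and 8.44 in L*er* (2.53-fold lower, adjusted p = 0.00158). Its neighbour *UGT84A3* had 7.43, 6.75 and 7.25 in Cvi and 6.12, 5.93 and 5.86 in L*er* (2.25-fold higher, adjusted p = 0.000802). The next gene, *UGT84A4*, had 9.33, 8.62 and 8.96 in Cvi and 7.61, 7.65 and 7.77 in L*er* (2.45-fold higher, adjusted p = 0.000342). In the beta-glucosidase pair on chromosome 3, *BGLU43* had 6.52, 5.35 and 5.41 in Cvi and 3.47, 3.55 and 3.63 in L*er* (4.62-fold higher, adjusted p = 0.000241), and *BGLU44* had 4.63, 4.61 and 4.57 and 5.66, 5.66 and 5.56 (2.03-fold lower, adjusted p = 0.000314).

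In the other 11 arrays with a call, 1 gene was called. *GSTU15* differed by 3.03 beside a measured neighbour at 0.50, *EXLA1* by −2.59 beside *EXLA3* at 0.18, and *UGT85A2* by −2.10 in an array of 4 whose highest difference was −0.04. The carboxypeptidase-like gene of the *SCPL* array differed by −2.59 beside one at 0.76.

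Genes without a symbol were followed by position alone. Of 458 called genes that could be placed in order, 78 had another called gene within 3 positions. A measured neighbour within 3 positions was counted for each called gene near it, so a called pair entered from both sides. Of 1322 neighbours so counted, 86 (6.51%) were called, while 3.95% of the 11595 placed genes were called. The 43 pairs so formed were in the same direction in 23 cases and in opposite directions in 20. They make up 37 groups, of which 16 were lower throughout, 3 higher throughout and 18 mixed. The groups described next were chosen after their values were seen.

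The C1-domain genes on chromosome 5, whose proteins have a cysteine- and histidine-rich domain, alternated. AT5G54020 had 8.67, 8.42 and 8.31 in Cvi and 4.38, 4.40 and 4.34 in L*er* (17.0-fold higher, adjusted p = 7.14e-09). AT5G54030 had 5.20, 5.15 and 4.30 in Cvi and 6.01, 6.36 and 6.23 in L*er* (2.49-fold lower, adjusted p = 0.00244). AT5G54040 had 8.14, 7.19 and 7.86 in Cvi and 3.64, 3.87 and 3.50 in L*er* (16.7-fold higher, adjusted p = 5.03e-07). Their outer neighbours differed by 0.02 (AT5G54010) and 0.95 (AT5G54050, under 2-fold).

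Among chitinases, which cleave fungal walls, AT2G43590 had 8.96, 8.73 and 9.11 in Cvi and 5.55, 5.68 and 5.58 in L*er* (10.1-fold higher, adjusted p = 2.67e-08). AT2G43620, 3 loci away, was 2.22-fold lower (adjusted p = 0.00107), while AT2G43600 and AT2G43610 between them differed by 0.36 and −0.17. A subtilase pair on chromosome 1 was likewise split. *SBT3.5* had 7.10, 5.77 and 6.12 in Cvi and 8.89, 8.97 and 8.80 in L*er* (5.89-fold lower, adjusted p = 0.000125), and AT1G32950 had 7.11, 6.49 and 6.57 and 5.03, 5.06 and 5.05 (3.19-fold higher, adjusted p = 3.22e-05), beside *SBT3.3* at 0.10. So was the pair of lipid recognition genes AT5G23830, at 1.95, and AT5G23840, at −2.05.

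Other groups went one way. The major latex-like genes AT4G23670 and AT4G23680 differed by −1.93 and −1.76, and AT5G19240 and AT5G19250 by −2.90 and −1.34. AT4G26870, AT4G26880 and AT4G26910 differed by −1.47, −1.64 and −3.65. AT4G26900 among them, named *AT-HF*, differed by 0.13, with a 95% interval of −0.13 to 0.40 that lies within 2-fold. In the run of short-chain dehydrogenase genes on chromosome 2, *TRI*, named for tropinone reductase, had 5.60, 6.22 and 6.19 in Cvi and 8.67, 8.63 and 8.63 in L*er* (6.23-fold lower, adjusted p = 1.89e-06), and the 8 measured neighbours differed by −0.62 to 0.18, of which AT2G29320 and AT2G29340 passed the adjusted p under 2-fold.

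**Figure D4:**
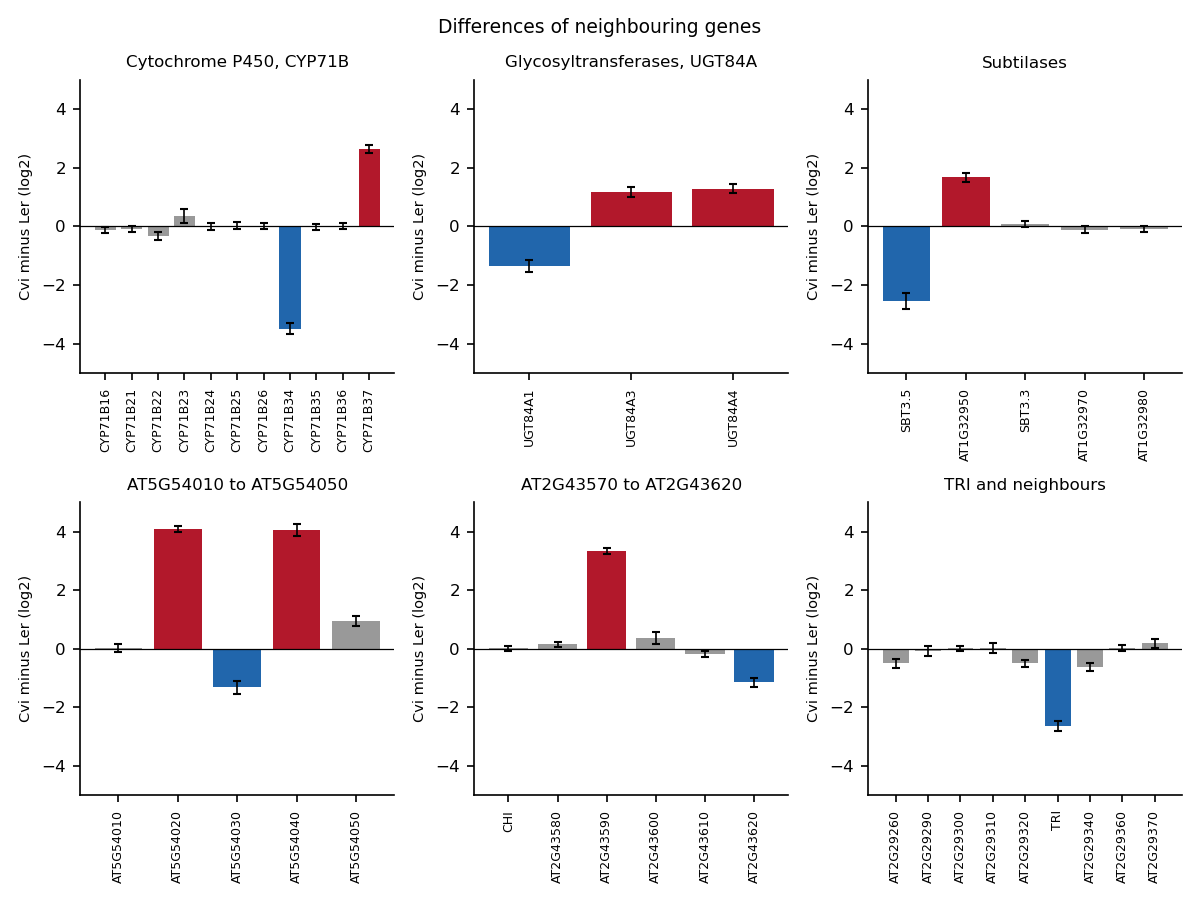
Cvi minus L*er* difference in log2 signal (vertical axis) of the measured genes, in locus order, in 6 runs of neighbouring genes, with bars for the estimate and lines for its standard error from limma. Red and blue bars were called higher and lower in Cvi, grey bars were not called, and in 5 of the 6 runs a red and a blue bar stand within 3 loci.

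Calls were found on every nuclear chromosome. The share called was 3.86%, 3.67%, 3.41%, 3.97% and 3.81% on chromosomes 1 to 5, the first without the interval. Pseudogenes gave 10 calls among 920 probe sets, and pseudogenes listed as transcribed 7 among 66, against 3.78% of all probe sets.

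The plastid genome gave 10 calls among 69 probe sets (14.5%), 4 higher and 6 lower in Cvi, against 3.78% of all probe sets. Plastid genes encode parts of photosynthesis and of the plastid's own gene expression and are transcribed together in long units. Calls of neighbouring plastid genes are therefore not independent of each other, and the 10 calls are not 10 separate events. The photosystem II genes *psbK* and *psbI* and the ATP synthase gene *atpA* are consecutive and were higher in Cvi. *psbK* had 7.73, 7.67 and 7.94 in Cvi and 6.02, 5.96 and 5.88 in L*er* (3.55-fold, adjusted p = 0.000252), *psbI* was 2.63-fold higher (adjusted p = 0.000410) and *atpA* 2.80-fold (adjusted p = 0.0220). The cytochrome assembly gene *ccsA* was 2.12-fold higher (adjusted p = 0.0145).

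The greatest loss was in 2 consecutive genes of the NADH dehydrogenase-like complex. *ndhI* had 6.94, 6.45 and 6.37 in Cvi and 9.57, 9.79 and 9.42 in L*er* (8.05-fold lower, adjusted p = 1.91e-06), and *ndhA* had 5.40, 4.82 and 4.66 in Cvi and 7.31, 7.70 and 7.24 in L*er* (5.48-fold lower, adjusted p = 1.58e-05). Their neighbours *ndhG* and *ndhH* differed by 0.32 and −0.28 (adjusted p = 0.145 and 0.102). *psbM* had 5.89, 6.22 and 6.24 in Cvi and 8.49, 9.12 and 9.02 in L*er* (6.78-fold lower, adjusted p = 2.19e-05), beside *petN* at 0.21. In the run *psbJ*, *psbL*, *psbF* and *psbE*, all passed the adjusted p with differences of −1.54, −0.40, −1.08 and −1.23, the second under 2-fold. The median of the 69 was 0.27, above the 0.01 of all probe sets, and the green tissue marker *RCA* was lower in Cvi, as given above.

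**Figure D5:**
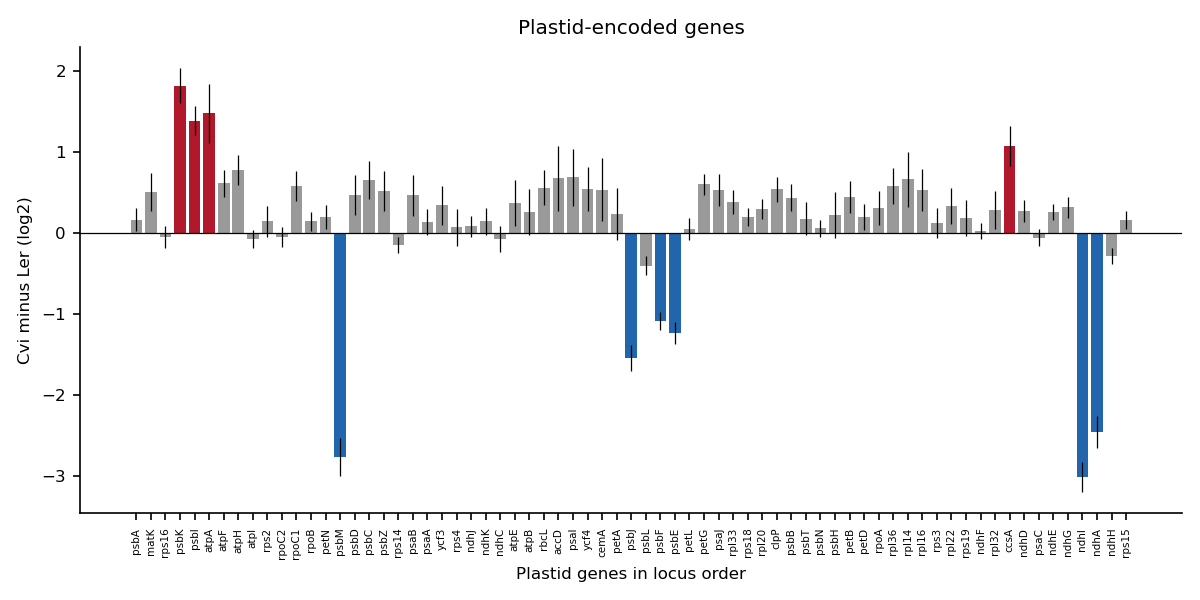
Cvi minus L*er* difference in log2 signal (vertical axis) of the 69 plastid-encoded genes in locus order (horizontal axis), with bars for the estimate and lines for its standard error from limma. Red and blue bars were called higher (4) and lower (6) in Cvi, and *ndhI* and *ndhA* lie at −3.01 and −2.46 beside neighbours within 0.32 of 0.

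Where a gene had more than 1 probe set, the calls were not shared by them. Of 138 genes with several probe sets, 8 had a call, and in none were all probe sets called. The probe sets of each gene differed in the same direction in all 8 genes, but 1 of the 8 other probe sets passed the adjusted p, and 4 had a difference of less than 0.25 in size. AT4G16980 had 7.02, 8.17 and 7.82 in Cvi and 4.89, 4.92 and 4.69 in L*er* at one probe set (difference 2.84, adjusted p = 2.34e-05) and 4.13, 4.24 and 4.24 against 4.13, 4.24 and 3.85 at the other (0.13, adjusted p = 0.602). AT5G49780 had a difference of 2.70 (adjusted p = 0.000100) at one probe set and 0.07 (adjusted p = 0.688) at the other, which was dim in all arrays. The closest match was AT2G31110, with −1.48 (adjusted p = 9.99e-05) and −0.95 (adjusted p = 0.000724). In 6 of the 8 other probe sets both accessions had a mean below 5.37.

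Probe sets of control transcripts also differed, at a high signal. The array carries probe sets for the 3′ end, middle and 5′ end of actin, and these stayed out of the fit. The signal of the 3′ actin set was 1116, 529 and 844 in Cvi and 7899, 7507 and 7507 in L*er*, 9.63-fold lower in Cvi. The middle set had 7331, 5793 and 6067 in Cvi and 6632, 6317 and 6219 in L*er*, and the 5′ set differed by −0.04 on the log2 scale. The 3′ and 5′ sets of glyceraldehyde-3-phosphate dehydrogenase from the same series of controls differed by 0.20 and 0.07, and those of ubiquitin by 0.07 and −0.33. A second 3′ actin set was 2.66-fold lower in Cvi, with no overlap of the arrays, beside a middle set at 0.06. A second 5′ ubiquitin set was 1.92-fold lower, also with no overlap, beside a middle set at −0.02. The fold of the first 3′ set was exceeded at 35 of the 487 called genes.

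In the NIL, the mean log2 signal was nearer to that of L*er* at 447 of the 487 called genes and nearer to that of Cvi at 40. Of the 65 called probe sets named by rule, 11 were nearer to Cvi, and 7 had NIL arrays apart from the L*er* arrays with a mean difference of at least 1. All of these 7 but AT4G03156 lie on chromosome 2, from *CYP71B6* (AT2G24180) to *JAL22* (AT2G39310). The NIL and Cvi are both set against the same L*er* arrays here, so the values are given side by side only. AT2G39040 had a mean log2 signal of 6.13 ± 0.04 in the NIL (SD, n = 3 here and below), against 5.83 ± 0.40 for Cvi and 10.51 ± 0.09 for L*er*. *UGT87A2* had 10.13 ± 0.10, 10.20 ± 0.20 and 8.95 ± 0.06, and *JAL22* had 7.92 ± 0.08, 8.94 ± 0.29 and 10.58 ± 0.09 in the same order. *JAL22* was thus lower in the NIL than in either accession. *CYP71B6* was at 10.04 ± 0.10, AT2G25980 at 11.29 ± 0.06 and AT2G26690 at 7.52 ± 0.26 in the NIL. AT4G03156, at 6.13 ± 0.26 in the NIL, lay between L*er* (2.90 ± 0.34) and Cvi (8.15 ± 0.77). With smaller differences from L*er*, *SWEET11* was at 8.81 ± 0.20 in the NIL and 8.59 ± 0.16 in Cvi, and *SWEET3* at 6.53 ± 0.19 and 6.35 ± 0.21. Chosen after their values were seen, *TRI* was at 5.90 ± 0.15 in the NIL, among the Cvi values given above, against 8.64 ± 0.03 in L*er*, and the called gene of the *SCPL* array was at 5.71 ± 0.10 in the NIL, 5.60 ± 0.13 in Cvi and 8.20 ± 0.05 in L*er*. *TRI* (AT2G29330) and this *SCPL* gene (AT2G35780) also lie within that stretch of chromosome 2.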

How the data were processed

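Affymetrix ATH1 arrays measured root tip RNA of Cvi, L*er* and the NIL in 3 replicates per genotype. The authors deposited linear intensities, which they had normalized. The submitters' processing notes give the names MAS5 and RMA with no version, and what each was used for is not given here. Array medians ran from 110 to 122, so the values were not normalized again. Precision is limited by how few arrays there are.

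Of 22810 probe sets, 64 controls were left out. The platform annotation gives 1 gene for 13513 of the other 22746, several for 503 and none for 8730, and only genes named alone were used. Symbols and gene order came from the TAIR10.1 gene table, and 1512 of the 12869 probe sets have a symbol beside a locus tag. Roles of genes are general background and not from the files.

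The fit had genotype as its single term and took in the 9 arrays (limma 3.58.1, lmFit with eBayes, under R 4.3.3), while summaries used Python 3.11.15. The fit was tested on simulated data. Members, lists and tests were chosen with earlier results of these data known. Named genes were the 15 largest differences in each direction with no overlap of arrays, the 3 brightest called genes in each direction, up to 4 called genes per family or list, the measured genes of tandem arrays with at least 2 calls, and measured markers. Genes outside this rule were chosen after their values were seen. Families were found by symbol and synonym, and 18 of the 45 families searched had no measured member. Of 27 lists, 10 had none, among them flowering time, nitrate, phosphate starvation, phenylpropanoids and lignin, and suberin. Tandem arrays had been planned on protein identity, which was not used here, and shared symbol stems replaced it. Alternatives were quantile normalization, leaving out the dimmest tertile, the 6 arrays alone, the replicate number as a block, a trend with robust estimation, log2 of the signal plus 16, other thresholds, and leaving out each array.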

Additional observations from a re-analysis of the deposited data

How the results depend on the processing

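The 487 calls (192 higher and 295 lower in Cvi) numbered 445 to 556 when single arrays were left out, 167 to 215 of them higher and 275 to 341 lower. The adjusted p with no limit on the fold gave 1589 (690 and 899), and a treat test for a fold above 2 gave 168 (61 and 107). Those higher in Cvi numbered 126 with 16 added to the signal and 127 without the dimmest tertile of probe sets. Adding 16 also lowered the share called in the dimmer quintiles to 0.0389%, 1.83% and 5.13%, and that of genes with no tandem neighbour to 2.41%. Without the dimmest tertile, 21.5% of tandem genes were called. The named calls were followed through 15 alternatives, which did not include the treat test. Of 65 named calls, 54 held in every one of these in which they were tested. Another 11 fell below the fold or lost the adjusted p in at least 1, and none changed direction. Adding 16 took *UGT84A3*, *SWEET3*, *XTH26*, *BGLU44* and *BGLU45* under 2-fold. Deviations of same-numbered Cvi and L*er* arrays from the means of their accessions correlated at −0.05, −0.26 and 0.23. With 3 arrays per accession these values cannot decide whether the replicate numbers pair the arrays. With the replicate block, 484 were called, and all 65 named calls held. The limit of 60% protein identity was not run. Signal over background is unknown, and most genes carry a single probe set.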
